A study of Mus musculus with 6 samples.

Results

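The 41 genes described here encode the machinery of autophagy and mitophagy, read in the RNA of mouse peritoneal macrophages with and without the transcription factor FOXO3. They were chosen by symbol as components of the pathway, from the kinase complex that starts an autophagosome to the receptors that bring cargo to it. The list is not complete, and Atg5, Atg2a and Atg2b are among the other pathway genes read further below. All 41 were found among the 54648 gene symbols of the table of estimated counts. All 41 had counts in all 6 libraries and passed the filter on low counts, so none was dropped. The libraries, 3 labelled WT and 3 labelled FOXO3 KO, came from mice of the strain C57BL/6, aged 6 to 8 weeks and kept on standard chow. The study's methods state that both sexes were used, that littermates were genotyped as homozygous WT or FOXO3 KO, and that macrophages were collected from the peritoneum after thioglycollate injection, which draws inflammatory cells into the cavity. The deletion was carried by the whole animal and not by macrophages alone, and both groups received the same injection. RNA was sequenced from the bulk of the collected cells as 76 bp reads. The sources used here do not state whether each library came from 1 mouse.

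Autophagy encloses cytoplasm in a double membrane that fuses with the lysosome. The ULK1 kinase complex starts the process, a class III phosphatidylinositol 3-kinase marks the membrane, WIPI proteins and ATG9 help it grow, and 2 conjugation systems attach LC3 and GABARAP proteins to it. Cargo receptors bind both ubiquitin-marked cargo and LC3, and mitophagy uses the same machinery to remove damaged mitochondria, either through the kinase PINK1 or through receptors of the BNIP3 type on the mitochondrion itself. In macrophages the pathway is known for limiting inflammasome activation and for clearing bacteria and lipid. FoxO3 is a forkhead transcription factor that is held in the cytosol by AKT, and work on other tissues, skeletal muscle above all, describes LC3, BNIP3 and other autophagy genes among its targets. The MiT/TFE factors TFEB, TFE3 and MITF act through a different DNA motif and drive lysosomal and autophagy genes when nutrients are scarce.

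Before the autophagy genes, the targeted gene was read in every library. Foxo3 stood at 117, 107 and 73.1 CPM (read counts scaled to a common library size, with TMM factors) in WT 1, 2 and 3. FOXO3 KO 1 held 4.71 CPM, and FOXO3 KO 3 held 4.29 CPM. The library labelled FOXO3 KO 2 held 104 CPM, within the WT range, and so went against its label. The log2 fold change of Foxo3 was −1.40 (SE 1.22, adjusted p = 0.859) over all 6 libraries and −4.46 (SE 0.285, adjusted p = 0.105) without FOXO3 KO 2, by the quasi-likelihood test of edgeR, with p-values adjusted by the method of Benjamini and Hochberg across every gene tested. The counts of members and the fitted changes of named genes are therefore given over 6 libraries, as labelled, and again over the 5 libraries left without FOXO3 KO 2, while other levels and ranges are over all 6 unless stated. WT 3 stood apart from the other libraries, with a correlation of log2 CPM of 0.929 to 0.956 with each of them against 0.986 to 0.994 among the other 5. Xist, the transcript that coats the inactive X chromosome of females, was above 10 CPM in WT 3 and FOXO3 KO 3 and below it in the other 4 libraries. The 10 macrophage markers were present in every library, with summed levels of 13918 to 18710 CPM in WT and 15507 to 17398 CPM in FOXO3 KO. Library totals ran from 28083393 to 36424117 counts, and the 41 genes held 0.332% to 0.432% of them, so that the lowest member count in a library was 266. Nothing in the labels says whether libraries were prepared together, and the p-values measure only the spread between these libraries.

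None of the 41 genes passed an adjusted p of 0.05 in the comparison of FOXO3 KO with WT, either over 6 libraries or over 5, by edgeR's quasi-likelihood test. Over all genes tested the share was 0.00% of 15608 and 0.00% of 16217. Over 6 libraries DESeq2 and limma-voom also called 0 of the 41, where they called 0.974% and 0.00% of all genes they tested. At an unadjusted p under 0.05, 2 members were lower in FOXO3 KO and 0 higher over 6 libraries by edgeR, 3 lower and 0 higher by DESeq2, and 2 lower and 0 higher by limma-voom. In the edgeR fit, 1.65% of all genes tested were lower and 4.04% higher at that limit, against 4.88% of the members lower. The shares lower and higher over all genes were 2.13% and 2.58% of 31378 by DESeq2 and 1.38% and 3.84% of 15608 by limma-voom. The DESeq2 fit was run without the filter on low counts, so its shares are over a wider set of genes. Its share of 0.974% was over the 17359 genes given an adjusted p. Over 5 libraries, 4 members (9.76%) were lower and 0 higher, where 1.26% of all genes were lower and 3.05% higher. These 4 were Pink1, Calcoco1, Rb1cc1 and Wipi2. In bulk RNA, fewer cells of a type and less RNA per cell cannot be told apart.

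The changes of most members were small. The log2 fold change was below 0.2 in size for 33 of 41 members (80.5%) over 6 libraries and for 31 (75.6%) over 5, where the shares of all genes were 54.4% and 51.8%. Each member had at least 266 counts in every library, and all genes tested were not matched to the members for level. The median member had a log2 fold change of −0.03 over 6 libraries and −0.08 over 5, beside −0.01 and −0.02 over all genes. Negative fold changes were found for 24 of 41 members (58.5%) over 6 libraries and 26 (63.4%) over 5, where 51.2% and 52.4% of all genes were negative. All FOXO3 KO libraries lay below all WT libraries for 4 members over 6 libraries (9.76%, against 5.36% of all genes) and for 8 members over 5 (19.5%, against 9.30%). No member had its FOXO3 KO libraries all above WT in either set, where 7.00% and 11.0% of all genes did. The 4 over 6 libraries were Rb1cc1, Wipi2, Pik3c3 and Ambra1, and Pink1, Calcoco1, Atg4b and Atg16l2 joined them over 5.

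**Figure D1:**
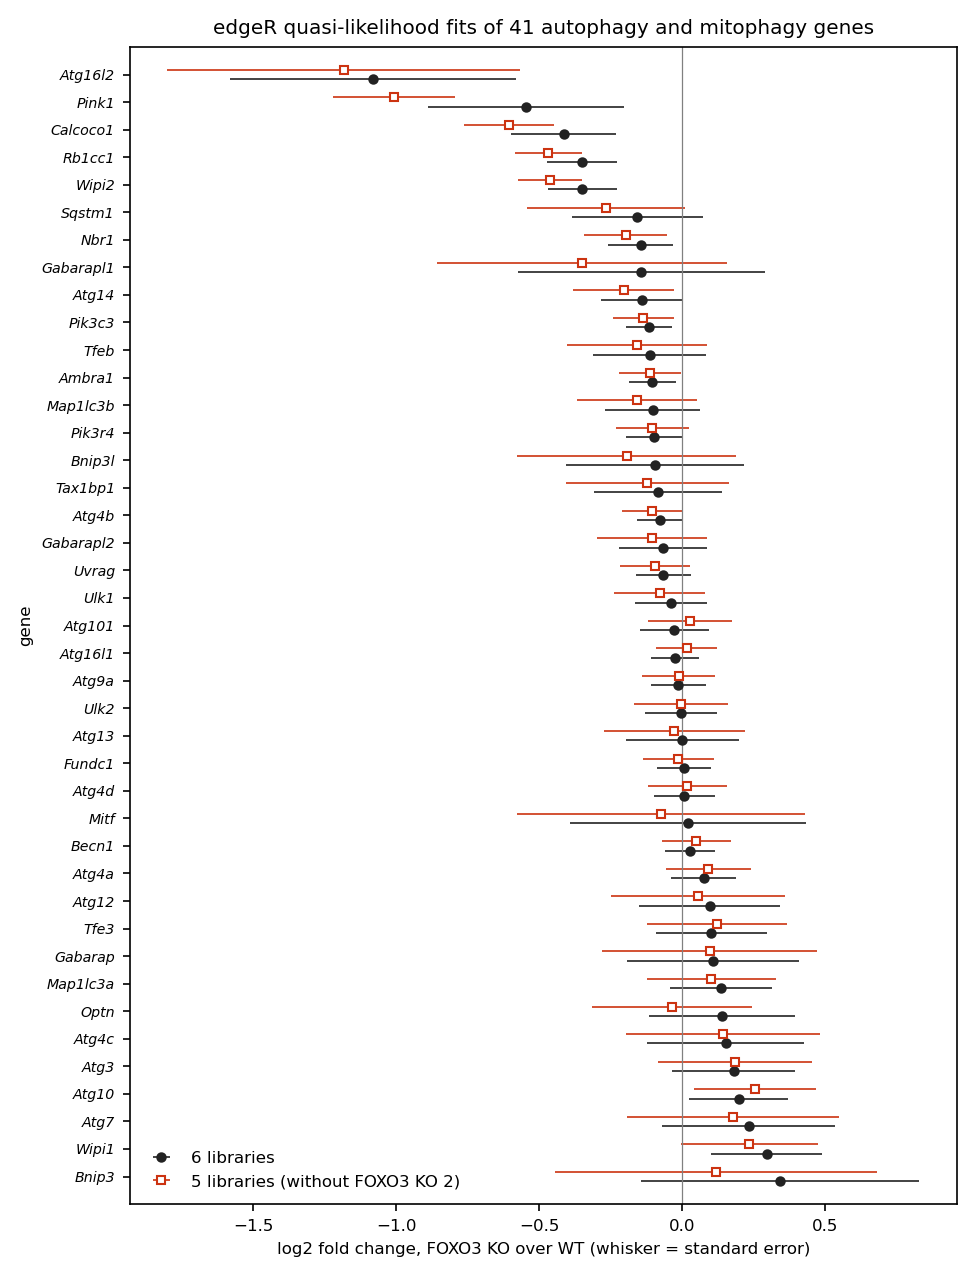
The log2 fold change of FOXO3 KO over WT is plotted for each of the 41 genes with its standard error, over all 6 libraries (filled circles) and without FOXO3 KO 2 (open squares). Most genes sit within 0.2 of 0, and Atg16l2, Pink1, Calcoco1, Rb1cc1 and Wipi2 lie farthest to the left in both sets.

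Pink1 encodes the kinase that collects on depolarised mitochondria and marks them for removal. It lies on chromosome 4 at chr4:138313409-138326307 on the minus strand (GRCm38, the build also called mm10). It stood at 115, 106 and 78.9 CPM in WT 1 to 3, at 53.9 CPM in FOXO3 KO 1, at 106 CPM in FOXO3 KO 2 and at 45.5 CPM in FOXO3 KO 3. Both libraries that lacked Foxo3 were below every WT library, and the library labelled FOXO3 KO 2 was level with WT 2. Over 6 libraries the log2 fold change was −0.55 (SE 0.342, unadjusted p = 0.158, adjusted p = 0.843 by edgeR). Without FOXO3 KO 2 it was −1.01 (SE 0.212, unadjusted p = 0.00458, adjusted p = 0.793 by edgeR), with a mean of 49.7 ± 5.92 CPM (SD, n = 2) against 99.9 ± 18.7 CPM in WT (SD, n = 3), or 49.7% of the WT mean. Among the 5 libraries, the adjusted p of Pink1 was 0.0724 with DESeq2, 0.0966 with the Xist split as a covariate in edgeR, and 6.06e-05 with that covariate in DESeq2, which was the setting that called most genes of all. The Pink1 transcripts shared 4.46% of their 31-base words with other genes, chiefly with Gm27646, which had 0 counts in every library.

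**Figure D2:**
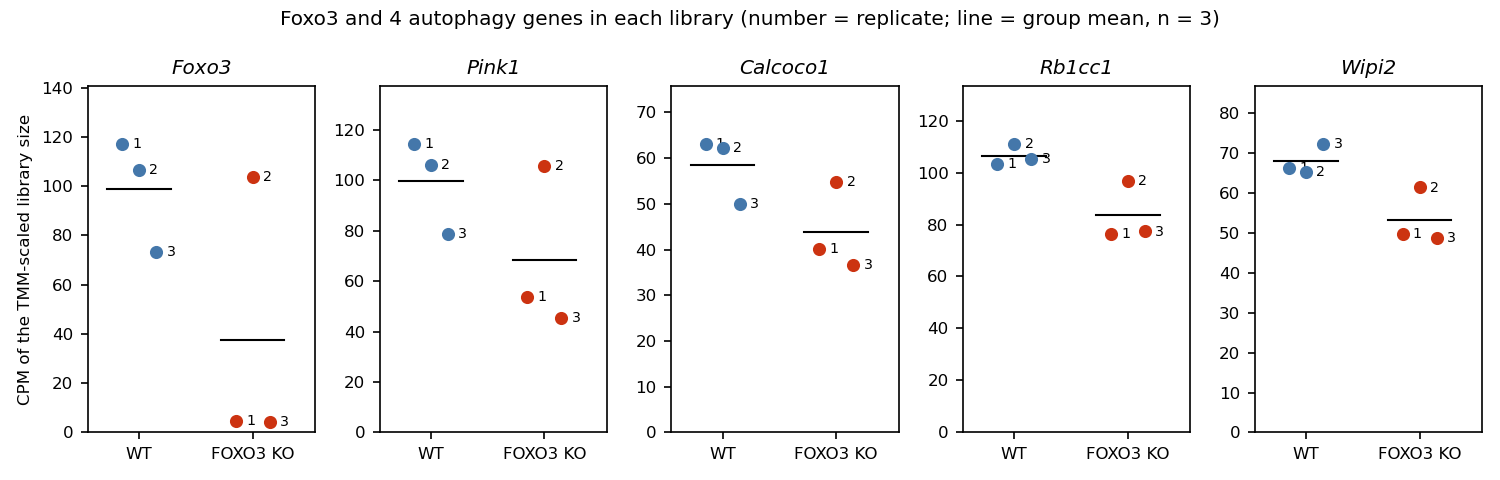
Levels of Foxo3 and of the 4 autophagy genes with an unadjusted p under 0.05 over 5 libraries are plotted in CPM, scaled with TMM factors, for each library (number, replicate; line, group mean; n = 3 per group). FOXO3 KO 1 and 3 lie below all WT libraries in every panel, and FOXO3 KO 2 lies among or close to the WT libraries.

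For the mitophagy receptors Bnip3, Bnip3l and Fundc1, the groups overlapped both over 6 libraries and over 5. Bnip3, a hypoxia-induced receptor in the outer mitochondrial membrane, stood at 61.2, 40.4 and 16.8 CPM in WT 1 to 3 and at 54.0, 64.6 and 31.6 CPM in FOXO3 KO 1 to 3. The groups overlapped, and WT 3 was the lowest library. This gave a log2 fold change of 0.34 (SE 0.487) over 6 libraries and 0.12 (SE 0.564) over 5, with adjusted p of 0.896 and 0.997 by edgeR. Of the 31-base words of Bnip3 transcripts, 70.7% were shared with other genes, and AC160336.1, the gene with the largest share, had 13872 to 39520 counts a library, so the level of Bnip3 depends on how the reads of both were divided. Bnip3l, also called NIX, the receptor that clears mitochondria from maturing red blood cells, stood at 411, 478 and 223 CPM in WT and at 381, 393 and 267 CPM in FOXO3 KO. Its log2 fold change was −0.10 (SE 0.311) over 6 libraries and −0.20 (SE 0.382) over 5. Fundc1, another outer-membrane receptor, varied little, from 37.2 to 43.6 CPM over all 6 libraries.

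Promoters are shown for Pink1 and Calcoco1, the members with the lowest log2 fold changes over 5 libraries apart from Atg16l2, and for Bnip3, whose window held an E-box. Each is the 250 bases before a RefSeq transcript start (GRCm38.p6, minus strand), written 5′ to 3′, with the letters of any motif searched in capitals. Bases within annotated exons of GENCODE M21 number 11 in the Pink1 window, 13 in that of Bnip3 and 0 in that of Calcoco1.
Pink1 promoter, chr4:138326297-138326546: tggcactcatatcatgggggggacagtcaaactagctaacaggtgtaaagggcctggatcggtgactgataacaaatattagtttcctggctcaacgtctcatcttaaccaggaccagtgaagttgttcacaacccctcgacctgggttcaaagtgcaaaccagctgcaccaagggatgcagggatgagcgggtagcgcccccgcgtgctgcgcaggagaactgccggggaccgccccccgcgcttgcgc
Calcoco1 promoter, chr15:102722179-102722428: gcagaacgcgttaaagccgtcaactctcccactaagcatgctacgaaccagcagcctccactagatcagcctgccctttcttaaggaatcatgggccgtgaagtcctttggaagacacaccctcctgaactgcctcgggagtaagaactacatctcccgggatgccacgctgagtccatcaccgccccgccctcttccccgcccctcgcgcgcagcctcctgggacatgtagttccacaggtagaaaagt
Bnip3 promoter, chr7:138909507-138909756: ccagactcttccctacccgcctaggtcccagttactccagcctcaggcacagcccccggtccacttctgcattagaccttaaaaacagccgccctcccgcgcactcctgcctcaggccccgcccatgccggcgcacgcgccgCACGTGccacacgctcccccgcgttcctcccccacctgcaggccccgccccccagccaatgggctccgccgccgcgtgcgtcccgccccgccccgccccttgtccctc
The motifs searched on both strands were the FoxO core GTAAACA, the insulin response motif CAAAACA, the E-box CACGTG bound by MiT/TFE factors, and the longer CLEAR motif, which is that E-box with GT before it and AC after it. The first 2 share their last 5 letters. The RefSeq promoter table used here was matched to 34 of the 41 members, with 43 promoters between them. Rb1cc1, Bnip3l, Becn1, Pik3c3, Atg12, Atg16l1 and Map1lc3a were not among them. The FoxO core was in 0 of 43 member promoters, against 3.17% of the 32851 promoters of the same length in the table. The insulin response motif was in 4 of 43 (9.30%, against 5.56%), in Gabarap, in Nbr1 and at both starts of Tax1bp1. Bases within annotated exons numbered 227 in that window of Gabarap, 182 in that of Nbr1, and 250 and 41 in those of Tax1bp1. The E-box was in 3 of 43 (6.98%, against 6.02%), in Atg3, Atg7 and Bnip3, and the CLEAR motif was in 0 of 43, against 0.24%. That window of Atg7, chr6:114670846-114671095 on the plus strand, lies inside the annotated gene, which starts at chr6:114643097. The absence of a motif says only that these letters are not in these windows.

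In the ULK complex, which starts autophagosome formation, the scaffold Rb1cc1 had lower values in FOXO3 KO, and the groups overlapped for the other 4 genes. Rb1cc1, also called FIP200, the scaffold on which the complex assembles (chr1:6206197-6276648, plus strand), stood at 103, 111 and 105 CPM in WT and at 76.5, 96.7 and 77.4 CPM in FOXO3 KO. All 3 FOXO3 KO libraries lay below all WT libraries, with FOXO3 KO 2 the closest to them. The fitted log2 fold change was −0.35 (SE 0.123, unadjusted p = 0.0274, adjusted p = 0.815 by edgeR) over 6 libraries and −0.47 (SE 0.118, unadjusted p = 0.00952, adjusted p = 0.867 by edgeR) over 5, with the mean of FOXO3 KO 1 and 3 at 72.2% of WT. Of the 31-base words of Rb1cc1, 22.9% occurred in other genes, chiefly in the pseudogene Gm13961, which had 0 counts in every library. Ulk1, the kinase that starts autophagy, stood at 53.5, 52.4 and 41.1 CPM in WT and at 46.6, 50.3 and 46.0 CPM in FOXO3 KO, and its log2 fold change was −0.04 (SE 0.126) over 6 libraries and −0.08 (SE 0.158) over 5. Ulk2, its paralogue, stood at 86.6, 92.9 and 70.2 CPM in WT and at 83.9, 83.2 and 81.9 CPM in FOXO3 KO, and its log2 fold changes were −0.0041 (SE 0.125) and −0.0050 (SE 0.163). Atg13, the regulatory subunit, ran from 57.7 to 93.5 CPM over the 6 libraries, both ends being WT. Atg101, which stabilises Atg13, ran from 22.9 to 28.4 CPM.

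The levels of the 6 genes of the class III phosphatidylinositol 3-kinase complex summed to 423, 429 and 435 CPM in WT. In FOXO3 KO they summed to 412, 417 and 405 CPM, so that the highest FOXO3 KO library lay below the lowest WT library. Of the 9 roles, this was the only role whose sums did not overlap between the groups over 6 libraries. Of single genes, 5.36% were lower and 7.00% higher without overlap in that set. Without FOXO3 KO 2, the sums of the ATG9 and WIPI genes did not overlap either. They were 114 and 112 CPM in FOXO3 KO 1 and 3, against 124 to 134 CPM in WT. The members of this complex differed by little each. Their log2 fold changes ran from −0.14 to 0.03 over 6 libraries and from −0.21 to 0.05 over 5. Pik3c3, the catalytic subunit VPS34, stood at 55.8, 59.7 and 59.4 CPM in WT and at 53.8, 55.2 and 52.3 CPM in FOXO3 KO, without overlap, and had a log2 fold change of −0.12 (SE 0.0810, adjusted p = 0.844 by edgeR) over 6 libraries and −0.14 (SE 0.108) over 5. Ambra1, a scaffold that links Beclin 1 to the ULK complex, stood at 59.8, 63.8 and 60.2 CPM in WT and at 58.0, 57.7 and 55.3 CPM in FOXO3 KO, with a log2 fold change of −0.10 (SE 0.0810, adjusted p = 0.854 by edgeR) over 6 libraries and −0.11 (SE 0.109) over 5. Both genes were thus lower in every FOXO3 KO library than in any WT library, and neither passed the test.

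Becn1, which encodes Beclin 1, the subunit that recruits the kinase, stood at 117, 123 and 116 CPM in WT and at 125, 117 and 120 CPM in FOXO3 KO. Its log2 fold change was 0.03 (SE 0.0885) over 6 libraries and 0.05 (SE 0.121) over 5, and 48.2% of its 31-base words lie opposite to or within other genes, chiefly Cntd1, which had 17 to 23 counts a library. Atg14, the subunit that directs the complex to autophagosomes, stood at 27.8, 27.3 and 21.8 CPM in WT and at 23.9, 25.3 and 20.6 CPM in FOXO3 KO, and its log2 fold changes were −0.14 (SE 0.143) and −0.21 (SE 0.176). Pik3r4, the regulatory subunit VPS15, ran from 50.8 to 61.3 CPM over the 6 libraries. Uvrag, which takes the place of Atg14 in endosomal complexes, ran from 99.8 to 117 CPM.

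Among the membrane proteins, Wipi2 had lower values in FOXO3 KO. Wipi2, which reads the lipid made by VPS34 and recruits ATG16L1, lies at chr5:142627698-142670588 on the plus strand and shared no 31-base word with other genes. It stood at 66.3, 65.3 and 72.4 CPM in WT and at 49.7, 61.4 and 48.8 CPM in FOXO3 KO, with no overlap between the groups and FOXO3 KO 2 again nearest to WT. Its difference was a log2 fold change of −0.35 (SE 0.121, unadjusted p = 0.0259, adjusted p = 0.804 by edgeR) over 6 libraries and −0.46 (SE 0.113, unadjusted p = 0.00836, adjusted p = 0.867 by edgeR) over 5, with FOXO3 KO 1 and 3 at 72.5% of WT. Wipi1, a related protein, stood at 22.4, 20.2 and 13.8 CPM in WT and at 22.1, 24.96 and 22.1 CPM in FOXO3 KO, so that the groups overlapped and WT 3 was lowest. Atg9a, the only membrane-spanning protein of the core machinery among the members, ran from 38.0 to 45.1 CPM.

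The conjugation enzymes, which attach ATG12 to ATG5 and LC3 to lipid, overlapped between the groups over 6 libraries. Atg12, the ubiquitin-like protein itself, stood at 88.6, 108 and 57.6 CPM in WT and at 100.5, 95.7 and 75.5 CPM in FOXO3 KO, and its log2 fold changes were 0.10 (SE 0.246) over 6 libraries and 0.05 (SE 0.305) over 5. Atg7, the activating enzyme of both systems, ran from 59.3 CPM in WT 3 to 133 CPM in WT 2, and the FOXO3 KO libraries lay between 112 and 133 CPM. Atg3, which transfers LC3, ran from 62.2 CPM in WT 3 to 111 CPM in FOXO3 KO 1. Atg10, which transfers ATG12, was at 8.25 to 11.2 CPM, and Atg16l1, which gives the complex its place on the membrane, was at 48.9 to 54.4 CPM.

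Atg16l2, a paralogue of Atg16l1 whose role in autophagy is less clear, had the most negative fold change of the 41 in both sets. It stood at 17.9, 14.8 and 51.1 CPM in WT and at 9.99, 15.1 and 14.5 CPM in FOXO3 KO. The WT 3 library alone was high, and the other WT libraries lay close to FOXO3 KO 2 and 3. In the fits, its log2 fold change was −1.08 (SE 0.4996, unadjusted p = 0.0718, adjusted p = 0.839 by edgeR) over 6 libraries and −1.18 (SE 0.617, adjusted p = 0.994 by edgeR) over 5, and it was −0.30 (SE 0.201) with WT 3 left out. The summed level of 8 B cell markers also stood out in WT 3, at 3611 CPM against 444 and 823 CPM in the other WT libraries and 198 to 762 CPM in FOXO3 KO. That of 8 T cell markers stood at 265 CPM in WT 3, against 50.8 and 66.2 CPM in the other WT libraries and 31.4 to 87.2 CPM in FOXO3 KO. All 8 markers were detected in every library in both lists. The part of these cells in the Atg16l2 level was not tested.

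The ATG4 proteases, which trim LC3 before it is attached and release it afterwards, had log2 fold changes from −0.08 to 0.15 over 6 libraries and from −0.11 to 0.14 over 5. Atg4b, the most widely active of them, stood at 47.1, 48.9 and 46.8 CPM in WT and at 44.6, 46.8 and 43.7 CPM in FOXO3 KO, and the groups met at WT 3 and FOXO3 KO 2. Its log2 fold change was −0.08 (SE 0.0799) over 6 libraries and −0.11 (SE 0.105) over 5, with adjusted p of 0.870 and 0.994 by edgeR. Atg4a was at 25.9 to 32.5 CPM, and 74.9% of its 31-base words were shared with the pseudogene Atg4a-ps, which was given 0 to 2 counts a library. Atg4c was at 31.1 CPM in WT 3 and at 54.2 to 64.6 CPM in the other 5 libraries. Atg4d was at 27.2 to 33.2 CPM, with 20.4% of its words shared with the overlapping gene Kri1.

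The LC3 and GABARAP genes differed far more from each other than between the groups. Per kb of exon, Gabarap had the highest WT level of all 41 members, at 306 ± 115 CPM per kb (SD, n = 3), and it stood at 330 ± 37.9 CPM per kb in FOXO3 KO (SD, n = 3). Gabarapl1 followed at 55.8 ± 27.3 CPM per kb in WT, Gabarapl2 at 43.7 ± 7.62, Map1lc3b at 34.7 ± 6.59 and Map1lc3a at 10.2 ± 1.13 (SD, n = 3 each). The spreads of the 3 in the middle overlapped, and Gabarap and Map1lc3a stood clear of them. The family summed to 841, 1017 and 513 CPM in WT and to 854, 848 and 689 CPM in FOXO3 KO, with WT 2 the highest and WT 3 the lowest library.

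**Figure D3:**
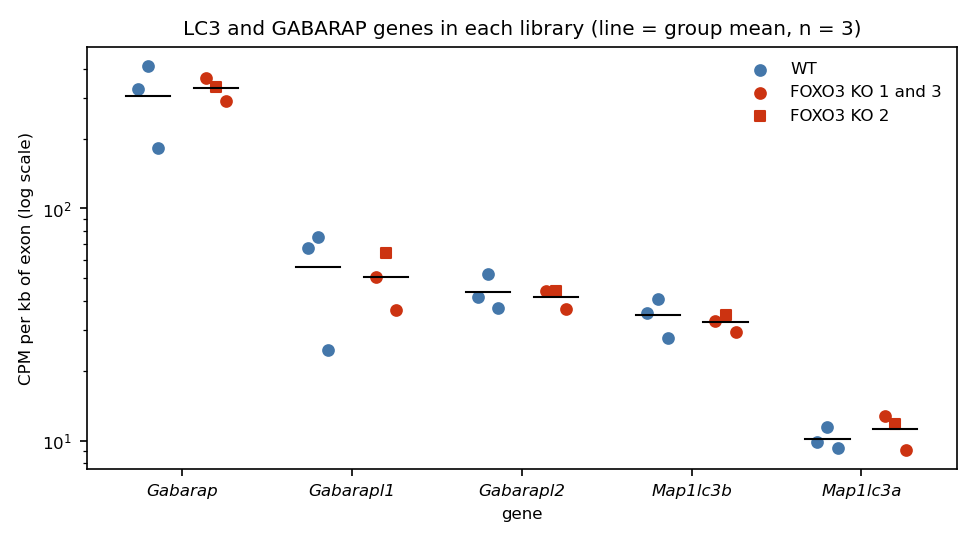
Levels of the 5 LC3 and GABARAP genes are plotted as CPM per kb of exon on a log axis, for WT (blue), FOXO3 KO 1 and 3 (red circles) and FOXO3 KO 2 (red square), with the mean of each group (line, n = 3). Gabarap lies above the other 4 genes in every library, Map1lc3a lies below them, and the lowest WT point of each gene is WT 3.

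Map1lc3b, which encodes LC3B, the protein most often used to mark autophagosomes, stood at 184, 212 and 144 CPM in WT and at 171, 180 and 152 CPM in FOXO3 KO. The FOXO3 KO libraries lay within the WT range. FOXO3 KO against WT gave a log2 fold change of −0.10 (SE 0.166, adjusted p = 0.904 by edgeR) over 6 libraries and −0.16 (SE 0.210, adjusted p = 0.994 by edgeR) over 5. Gabarapl1, described like LC3B as a FoxO3 target in muscle, stood at 136, 152 and 49.6 CPM in WT and at 103, 129 and 73.8 CPM in FOXO3 KO. WT 3 was again the lowest, and the log2 fold change was −0.14 (SE 0.432) over 6 libraries and −0.35 (SE 0.506) over 5. Gabarap ran from 247 to 554 CPM, Gabarapl2 from 61.9 to 87.5 CPM and Map1lc3a from 10.2 to 14.2 CPM over the 6 libraries.

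Of the cargo receptors, Calcoco1 had lower values in FOXO3 KO. Calcoco1 encodes a receptor known for the turnover of endoplasmic reticulum and Golgi, lies at chr15:102706777-102722178 on the minus strand, and shared no 31-base word with other genes. It stood at 63.2, 62.2 and 50.02 CPM in WT and at 40.2, 54.8 and 36.6 CPM in FOXO3 KO. FOXO3 KO 1 and 3 were below every WT library, while FOXO3 KO 2 was above WT 3. Its log2 fold change was −0.42 (SE 0.182, unadjusted p = 0.0614, adjusted p = 0.839 by edgeR) over 6 libraries and −0.61 (SE 0.157, unadjusted p = 0.0108, adjusted p = 0.875 by edgeR) over 5, with FOXO3 KO 1 and 3 at 65.7% of WT.

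Sqstm1, which encodes p62, the receptor that is itself degraded by autophagy, stood at 328, 357 and 211 CPM in WT and at 269, 307 and 228 CPM in FOXO3 KO. The groups overlapped through WT 3, and the log2 fold change was −0.16 (SE 0.229, adjusted p = 0.899 by edgeR) over 6 libraries and −0.27 (SE 0.276, adjusted p = 0.994 by edgeR) over 5. Nbr1, a receptor that works with p62, ran from 144 to 181 CPM. Tax1bp1, which recruits the machinery to ubiquitin condensates, ran from 253 to 428 CPM, with both ends in WT. Optn, a receptor for damaged mitochondria and bacteria, ran from 22.8 to 42.0 CPM, from WT 3 to FOXO3 KO 2. Per kb, Sqstm1 stood at 106 ± 27.3 CPM in WT and Bnip3l at 113 ± 40.3 CPM (SD, n = 3 each), next after Gabarap among the 41 and within each other's spread.

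The transcription factors of the MiT/TFE family overlapped between the groups. Tfeb, the main activator of lysosomal genes, stood at 73.2, 71.0 and 45.2 CPM in WT and at 59.6, 61.9 and 53.5 CPM in FOXO3 KO, with a log2 fold change of −0.11 (SE 0.197) over 6 libraries and −0.16 (SE 0.245) over 5. Tfe3 was at 84.3 CPM in WT 3 and at 123 to 136 CPM in the other 5 libraries. Mitf was at 42.7 CPM in WT 3, at 131 and 128 CPM in WT 1 and 2, and at 104, 114 and 86.2 CPM in FOXO3 KO. The 3 genes summed to 336, 335 and 172 CPM in WT and to 296, 299 and 264 CPM in FOXO3 KO, so that the WT group held both the highest and the lowest levels.

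WT 3 was the lowest of the 6 libraries for 22 of the 41 members (53.7%), against 37.5% of all genes tested, and the highest for 5, against 37.2%. In WT 3 the members lay at a median of −0.21 on the log2 scale from the median of the 6 libraries, beside −0.00089 for all genes tested. FOXO3 KO 3 was the lowest for 10 members (24.4%, against 8.66% of all genes), and WT 2 the highest for 19 of the 41 (against 19.9% of all genes). The lowest values of the pathway thus lay mostly in the pair of libraries with Xist, 1 of each genotype. The summed macrophage markers were lowest in the same pair, at 13918 CPM in WT 3 and 15507 CPM in FOXO3 KO 3. In the other libraries they ran from 15957 to 18710 CPM, with WT 2 the highest. Xist, cell content and other differences between libraries cannot be told apart here, and their part was not tested.

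**Figure D4:**
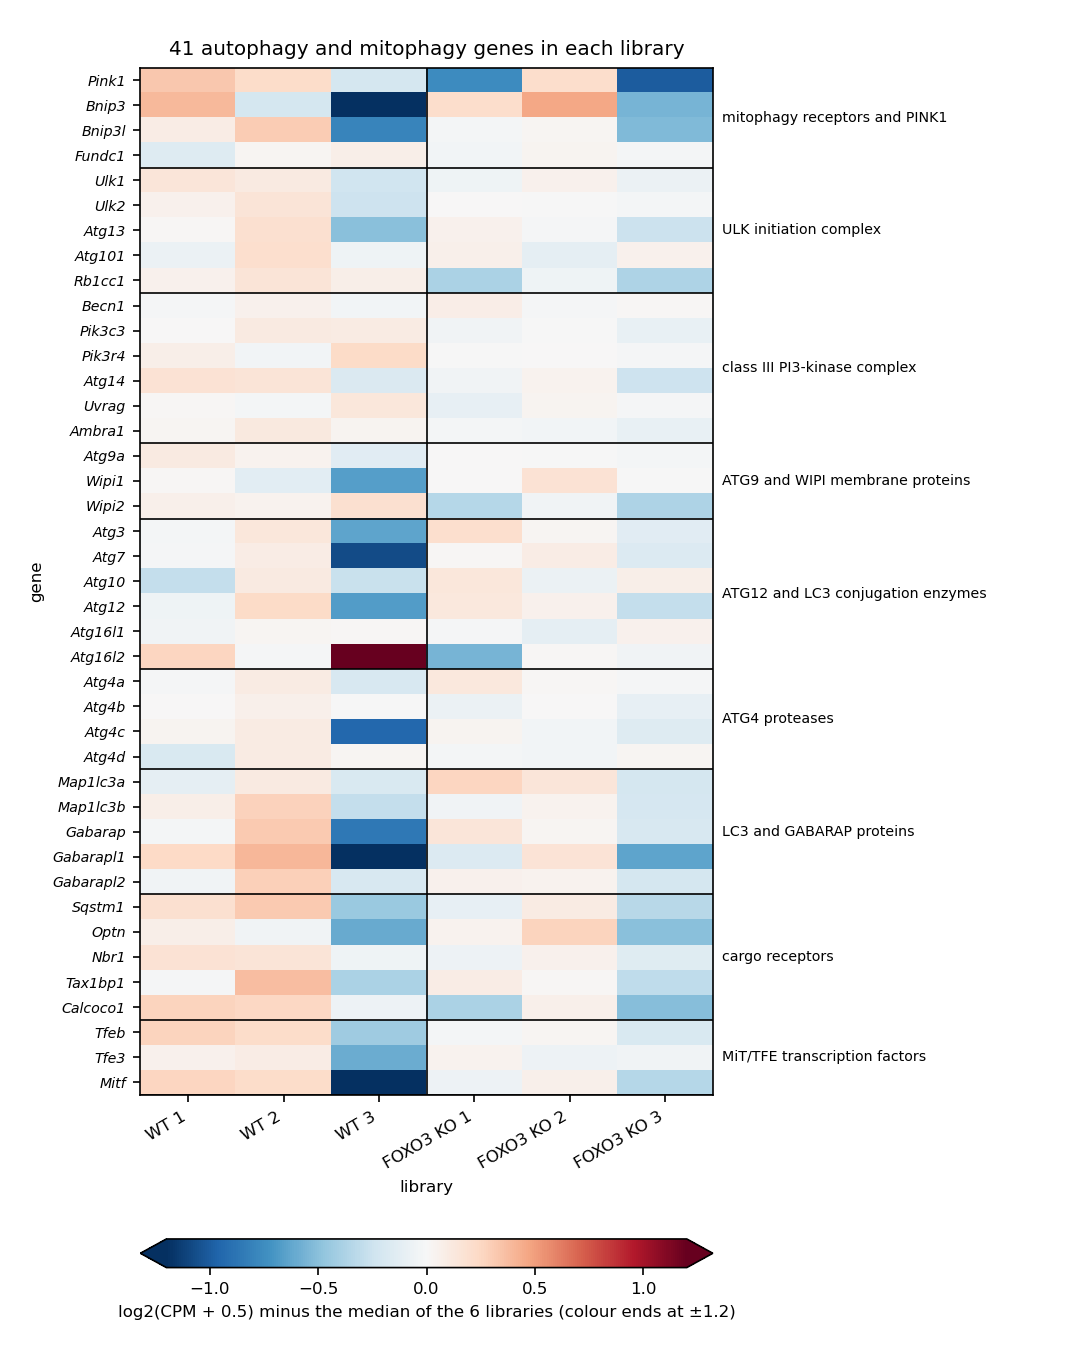
Each cell is the log2(CPM + 0.5) of a gene in a library minus the median of that gene over the 6 libraries, with genes grouped by role and colours ending at 1.2 in either direction. WT 3 is the bluest column, and Pink1, Rb1cc1, Wipi2 and Calcoco1 are blue in FOXO3 KO 1 and 3 but not clearly in FOXO3 KO 2.

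Leaving out WT 3 changed the counts. At an unadjusted p under 0.05, 7 of 41 members (17.1%) were then lower in FOXO3 KO and 0 higher, where 2.25% of all genes tested were lower and 6.15% higher. They were Rb1cc1, Wipi2, Calcoco1, Sqstm1, Nbr1, Tfeb and Mitf, with log2 fold changes from −0.51 to −0.20. None passed an adjusted p of 0.05, and the lowest adjusted p was 0.516 by edgeR. All FOXO3 KO libraries lay below both WT libraries for 17 members (41.5%, against 10.9% of all genes) and above both for 0 (against 14.2%). The median member was at −0.11, and the median gene at 0.0030. WT 3 was the lowest library for 22 of the 41 members, and leaving it out raises the WT mean of those. With WT 2 left out instead, the highest library for 19 members, the median member was at 0.07.

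With both WT 3 and FOXO3 KO 2 left out, a choice made after their values were seen, 10 members (24.4%) were lower at an unadjusted p under 0.05 and 0 higher, where 3.39% of all genes were lower and 5.49% higher. Pink1, Atg14 and Gabarapl1 joined the 7 genes above. Both FOXO3 KO libraries lay below both WT libraries for 21 members (51.2%, against 18.3% of all genes) and above both for 0 (against 19.8%). In this set of 4 libraries Pink1 had a log2 fold change of −1.15 (SE 0.124, adjusted p = 0.0982 by edgeR), Calcoco1 of −0.71 (SE 0.102, adjusted p = 0.204), Gabarapl1 of −0.70 (SE 0.176, adjusted p = 0.358) and Sqstm1 of −0.46 (SE 0.128, adjusted p = 0.400). The value of Sqstm1 was −0.0077 when WT 2 alone was left out. No member passed an adjusted p of 0.05 here either.

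Since the libraries differed in Xist, the comparison was also read within each side of that split, as log2 ratios without a test because FOXO3 KO and WT then held 1 or 2 libraries each. FOXO3 KO 1 was below the mean of WT 1 and 2 for 30 of 41 members (73.2%, against 52.3% of all genes), with a median log2 ratio of −0.08. FOXO3 KO 3 was below WT 3 for 16 of 41 (39.0%, against 49.5%), with a median of 0.10. The direction of the median thus differed between the sides. Members lower on both sides numbered 13 (31.7%, against 32.7% of all genes), a share near the background, and 8 were higher on both (19.5%, against 30.8%). For 5 members the log2 ratio was below −0.3 on both sides (12.2%, against 9.01% of all genes), again a share near the background. With the library labelled FOXO3 KO 2 included on the low side there were 4 (9.76%, against 5.13%), Wipi2 no longer among them. Pink1 was at −1.04 on the low side of Xist, or −0.47 with FOXO3 KO 2, and at −0.79 on the high side. Calcoco1 was at −0.64, or −0.40 with that library, and at −0.45. Rb1cc1 was at −0.49, or −0.31 with it, and at −0.44. Wipi2 was at −0.40, or −0.24 with it, and at −0.57. Atg16l2 was at −0.71, or −0.38 with it, and at −1.82. These genes were named above for their values in the same libraries, so the ratios add no separate support.

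Markers of other cells moved with the libraries as well, and their part in the values above was not tested. The summed level of 10 neutrophil markers was 134 to 209 CPM in WT and 485, 216 and 414 CPM in FOXO3 KO 1 to 3, and 3 of the 10 were at 0 in some library. That of 8 markers of mesothelial cells and fibroblasts was 41.8 to 76.0 CPM in WT and 95.03, 489 and 172 CPM in FOXO3 KO. That of 6 markers of red blood cells was 9.70 to 27.0 CPM in WT and 117, 9.23 and 182 CPM in FOXO3 KO. FOXO3 KO 1 and 3, which were low in Foxo3 and Pink1, were thus high in neutrophil and red blood cell markers. That of 6 mast cell markers was 776 CPM in WT 3 and 99.6 to 291 CPM in the other 5 libraries. No marker tested passed an adjusted p of 0.05 over 6 libraries by edgeR, where 0.00% of all 15608 genes did. The smallest adjusted p of any gene in that fit was 0.714, so this says nothing particular to the markers. Of the 10 neutrophil markers, 7 were tested.

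Beyond the 41 genes, 57 others of the pathway were read from a list of other autophagy machinery, mitophagy genes, cargo receptors, fusion genes and upstream nutrient signalling genes. All 57 were tested and 0 passed an adjusted p of 0.05 over 6 or 5 libraries by edgeR. At an unadjusted p under 0.05, 2 (3.51%) were lower and 0 higher in each set, where 1.65% of all genes were lower over 6 libraries and 1.26% over 5. Their median log2 fold change was 0.04 over 6 libraries and 0.01 over 5, with 32 and 30 of 57 positive. All FOXO3 KO libraries lay below WT for 4 of the 57 over 6 libraries (7.02%, against 5.36% of all genes). Over 5 libraries they did so for 6 (10.5%, against 9.30%), and both shares were near those of all genes. They lay above WT for 1 of the 57 in each set, where 7.00% and 11.0% of all genes did.

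Wdr45, which encodes WIPI4, a relative of WIPI2 that binds the lipid transfer protein ATG2, had the lowest p of the 57. It stood at 27.9, 27.9 and 30.9 CPM in WT and at 17.8, 24.3 and 16.5 CPM in FOXO3 KO, without overlap and with FOXO3 KO 2 nearest to WT. This gave a log2 fold change of −0.57 (SE 0.170, unadjusted p = 0.0147, adjusted p = 0.731 by edgeR) over 6 libraries and −0.75 (SE 0.134, unadjusted p = 0.00211, adjusted p = 0.728 by edgeR) over 5, where DESeq2 gave an adjusted p of 0.00777. Of its 31-base words, 27.7% were shared with Gm45208, which had 2 to 15 counts a library. Usp30, a deubiquitinase that opposes mitophagy, stood at 21.3, 20.1 and 20.9 CPM in WT and at 17.3, 17.2 and 15.7 CPM in FOXO3 KO, and its log2 fold changes were −0.31 (SE 0.104, unadjusted p = 0.0230 by edgeR) over 6 libraries and −0.33 (SE 0.136, unadjusted p = 0.0571) over 5. Ccpg1, a receptor for the turnover of endoplasmic reticulum, stood at 138, 147 and 128 CPM in WT and at 104, 132 and 110 CPM in FOXO3 KO, and its log2 fold changes were −0.25 (SE 0.127) over 6 libraries and −0.36 (SE 0.134, unadjusted p = 0.0406 by edgeR) over 5.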

How the data were processed

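The authors deposited estimated counts per gene symbol, without normalization, for 3 WT and 3 FOXO3 KO libraries of mouse peritoneal macrophages. The submitters' processing notes name STAR 2.6.1d, kallisto 0.46.0, DESeq2 and mm10 without saying which step used which, and the annotation is not given in the sources used here. Whole numbers, to within 0.01, made up 81.4% of the table, and the rest were rounded to the nearest. Groups were taken from the labels and compared with edgeR 4.0.16 in R 4.3.3 (filterByExpr, TMM, glmQLFit, glmQLFTest, Benjamini-Hochberg over all genes tested). SE was computed by dividing the absolute log2 fold change by the square root of F. DESeq2 1.42.0, limma-voom 3.58.1, other scalings and filters, a replicate block, a covariate for Xist and leaving out each library were alternatives. The code was tested on simulated counts.

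The members and lists were chosen with earlier results of these data known. The text gives fold changes for members described as FoxO3 targets, members with an unadjusted p under 0.05 or without overlap in either set of libraries, and other pathway genes with an unadjusted p under 0.05. Members named for the fits without WT 3 were chosen after their values were seen. Counts within the Xist split used log2 ratios of CPM + 0.5. Levels per kb used merged exons of coding transcripts in GENCODE M21 (GRCm38), in which all 41 members were found, and shared 31-base words were counted on both strands of all its transcripts. Genes that share words depend on how the authors' counting divided reads.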

Additional observations from a re-analysis of the deposited data

How the results depend on the processing

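All 41 members stayed above an adjusted p of 0.05 in every alternative but 1: with DESeq2, the Xist covariate and FOXO3 KO 2 left out, 2 were called, Pink1 (adjusted p = 6.06e-05) and Atg16l2 (0.00535). Of the other pathway genes, 1 was called, Wdr45, by DESeq2 without FOXO3 KO 2 and 1, Wdr45 again (0.00947), with the covariate added. Over all genes the calls were 0 by edgeR, 169 by DESeq2, 104 by DESeq2 without FOXO3 KO 2, 17 by edgeR with the covariate and without FOXO3 KO 2, 731 by DESeq2 with the covariate and without FOXO3 KO 2, and 4 by edgeR without FOXO3 KO 2 and WT 3. The settings that left out FOXO3 KO 2 together with another change were chosen after seeing the data. The log2 fold change of Foxo3 in these last 4 settings was −4.46, −4.35, −4.34 and −4.64, past the threshold, and it lay between −4.46 and −0.87 when 1 library was left out. Members without overlap numbered 7 by library size without factors and 21 without FOXO3 KO 2 and WT 3. They numbered 4 to 17 when 1 library was left out. Of all genes, 5.36% were lower without overlap over 6 libraries, 9.30% without FOXO3 KO 2, 10.9% without WT 3 and 18.3% without both. The shares higher were 7.00%, 11.0%, 14.2% and 19.8%. Members lower at an unadjusted p under 0.05 by edgeR numbered 0 without FOXO3 KO 1 or without FOXO3 KO 3. They numbered 1 without WT 1 and 2 without WT 2. Without FOXO3 KO 2 there were 4 (against 1.26% of all genes), and without WT 3 there were 7 (against 2.25%). Shares of all genes for the other settings are not given here. The median member turned positive, to 0.07, without WT 2, and to 0.0059 without FOXO3 KO 3. The causes were not tested.

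Directions changed between settings, and not only for small values. Bnip3, which turned in some, had the highest log2 fold change of the 41 over 6 libraries, at 0.34. Ulk2 turned to 0.0023 with limma-voom, 0.011 without a filter, 0.0057 with the replicate block, 0.0052 with the Xist covariate, and 0.044 and 0.055 with that covariate and without FOXO3 KO 2 in edgeR and DESeq2. Without FOXO3 KO 2 and WT 3, Bnip3 turned to −0.25 and Atg12 to −0.16. With 1 library left out, the log2 fold change ran from −0.11 to 0.31 for Atg12, from −0.30 to 0.0063 for Tfeb, from −0.23 to 0.034 for Map1lc3b, from −0.34 to −0.0077 for Sqstm1, from −0.14 to 0.026 for Ulk1, from −0.00091 to 0.057 for Becn1, from −0.49 to 0.13 for Gabarapl1, from −0.015 to 0.81 for Bnip3, from −0.35 to 0.13 for Bnip3l and from −0.10 to 0.085 for Ulk2.

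Deviations from the group means correlated at 0.339, −0.061 and 0.567 between same-numbered libraries. With 3 libraries in each group, and WT 3 apart from the others, these values cannot decide whether the replicate numbers pair the libraries. With the number as a replicate block in edgeR, 0 members were called, and the log2 fold change of Foxo3 was −3.06. At an unadjusted p under 0.05, 4 members were lower in that fit, with no share of all genes given here. Across the groups, WT 1, WT 3 and FOXO3 KO 3 correlated best with the library of their own number. WT 2, FOXO3 KO 1 and FOXO3 KO 2 correlated better with a library of another number.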
